A study of Mus musculus with 18 samples.

Results

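Wild-type (WT) epiblast-like cells (EpiLC) held 72 genes in near silence that WT primordial germ cell-like cells (PGCLC) expressed at both later stages. Cells without a working Esrrb gene (KO) reached a median of 47.4% of the WT level of these genes at day 3 and 55.4% at day 5. The genes were chosen on deposited CPM values (counts of a gene scaled to the total of its library) of 25909 genes. A member had a mean under 1 CPM over the 3 WT EpiLC libraries, at least 5 CPM over the 3 WT day 3 libraries and at least 5 CPM over the 3 WT day 5 libraries. These thresholds passed 85 genes, and 7 predicted gene models and 6 named genes were left out by name. The WT values chose the members, so their step in WT is a description with no test, and the KO shares of WT lean low.

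Polyadenylated RNA was sequenced from mouse SGET embryonic stem cell derivatives of B6CBA/129 background, a line that reports expression of Dppa3 (Stella) and Dppa5a (Esg1). The 6 groups had 3 libraries each: KO and WT EpiLC, KO and WT PGCLC at day 3, and KO and WT PGCLC at day 5. EpiLC were induced with activin A and bFGF and left unsorted. PGCLC were induced from EpiLC with BMP4, LIF, SCF, BMP8a and EGF and sorted on both reporters after 3 or 5 days. KO replicates are lines named A5, B1 and A2, and the labels do not say whether each is a single clone. WT replicates are numbered, and nothing says that they came from separate cultures, so their spread may be technical. Below, KO values are listed for A5, B1 and A2 in that order and WT values for replicates 1, 2 and 3.

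Esrrb encodes an orphan nuclear receptor that maintains naive pluripotency. In the embryo, BMP signals to the epiblast induce Prdm1, Prdm14 and Tfap2c, which shut down somatic genes and bring back much of the pluripotency programme in primordial germ cells. The culture system follows this route from EpiLC to PGCLC, and the comparison asks which genes are switched on without Esrrb.

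Esrrb itself stood at 161, 165 and 90.4 CPM in KO day 3 libraries, against 625, 591 and 613 CPM in WT day 3 libraries. The library labelled KO EpiLC A2 held 38.6 CPM of Esrrb, above the 32.2, 26.9 and 19.8 CPM of WT EpiLC and against its label, while KO EpiLC A5 and B1 held 6.82 and 4.57 CPM. Which exons were removed is not stated, and reads from exons left in place would still be counted. A list of 15 genes of germ cell specification, which includes the sort reporter Dppa3, summed to 3405 to 3721 CPM in KO and 3493 to 3638 CPM in WT at day 3. In the test given below, 3 of its 14 tested genes were higher in KO and 1 lower. At day 5 the list summed to 3113, 3892 and 4019 CPM in KO and 3238 to 3256 CPM in WT (6 genes higher, 0 lower). Library totals ran from 3032965 to 5286330 counts. In bulk libraries, fewer cells of a type and less RNA per cell cannot be told apart.

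In WT the members made a wide step from a low start. Over all 72 genes, mean levels in WT EpiLC ran from 0 to 0.99 CPM (median 0.576), in WT day 3 from 5.02 to 48.2 CPM (median 8.63) and in WT day 5 from 5.01 to 86.6 CPM (median 10.1). The highest was Mep1b, which encodes the metalloprotease meprin beta. Just inside the EpiLC threshold were H2-Eb1 (0.99 CPM) and Kank4 and Man1c1 (0.985 CPM each), and just outside it Btnl7 (1.06 CPM), Tgm2 and Sdc3 (1.06 CPM each). At the day 3 threshold Msc (5.02 CPM) and Fgfr3 (5.11 CPM) were just inside and Fhad1 (4.90 CPM) and Myom2 (4.88 CPM) just outside. At the day 5 threshold Chdh (5.01 CPM) and Xaf1 (5.06 CPM) were just inside and Serpinb6b (4.58 CPM) and Baiap3 (4.35 CPM) just outside. The members cover 10 roles: 6 transcription regulators, 7 secreted or membrane-bound signals, 8 surface receptors and surface proteins, 7 channels, transporters and gap junction proteins, 9 adaptors and signalling proteins, 13 enzymes of metabolism and glycans, 3 ubiquitin-linked or interferon-responsive genes, 8 calcium-binding, cytoskeletal and scaffold proteins, 4 proteases and inhibitors, and 7 others. The role groups were drawn up after the members were known.

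**Figure D1:**
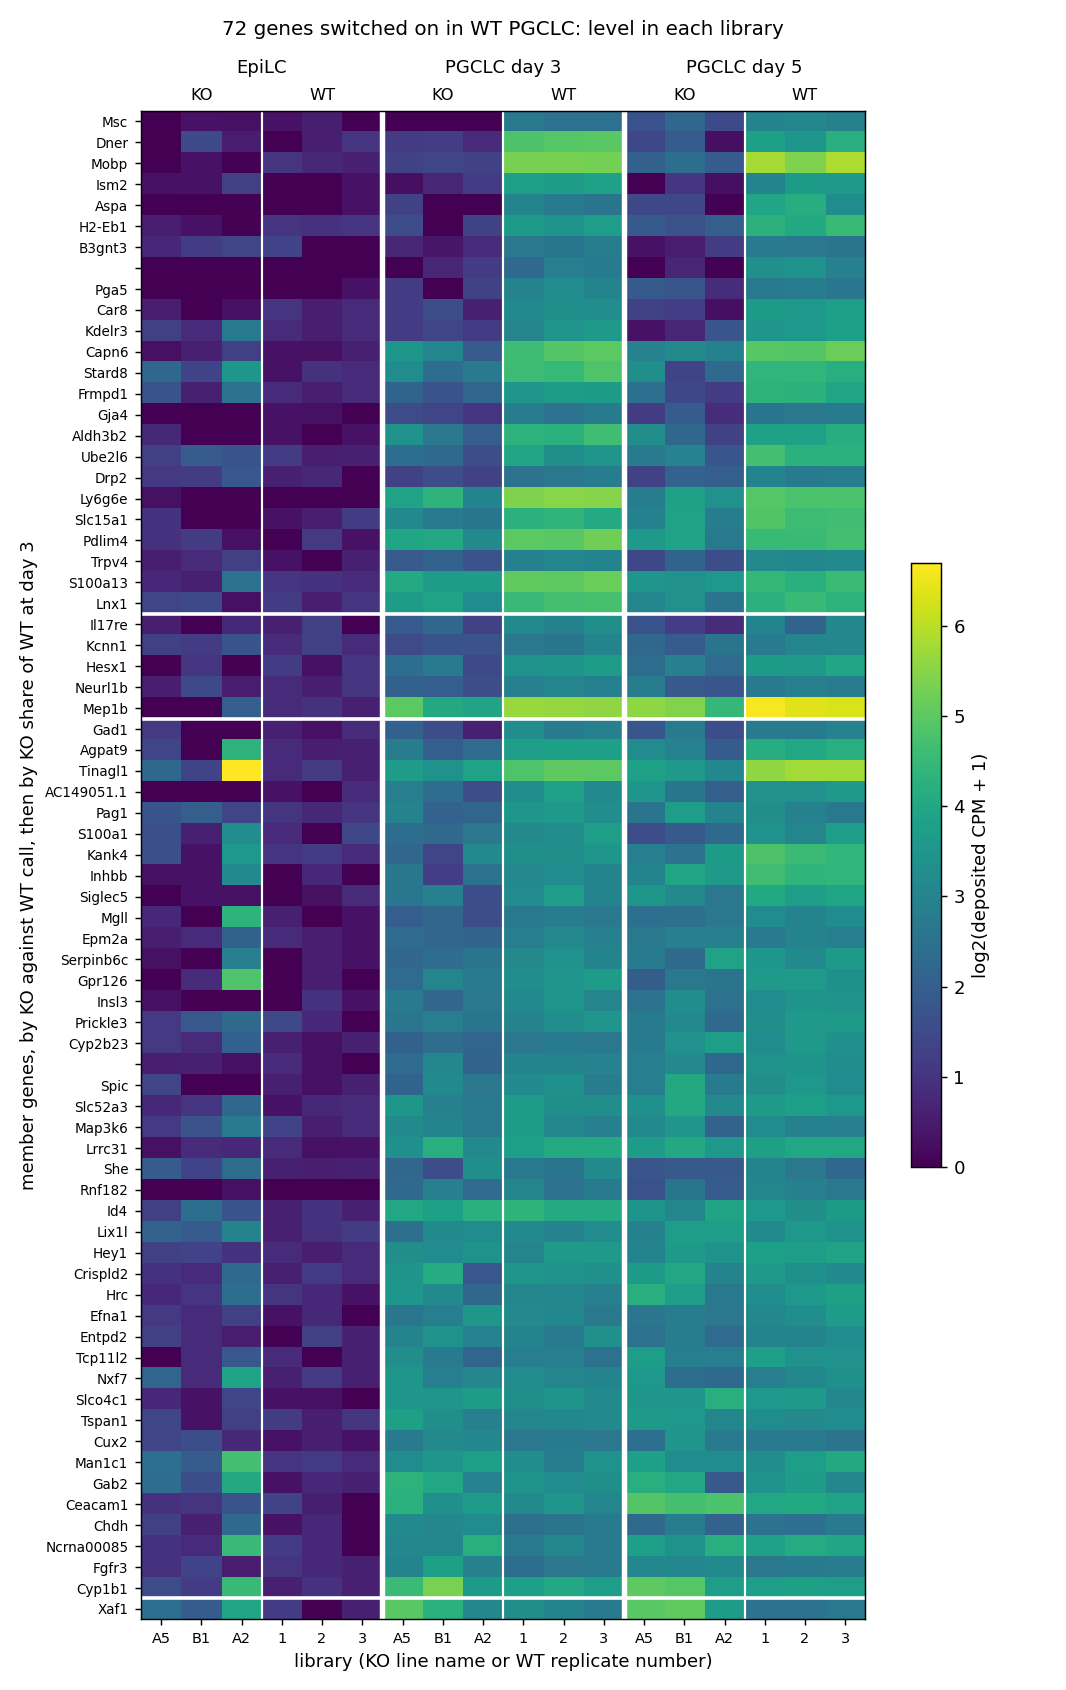
Level of each of the 72 genes in each of the 18 libraries, as log2(deposited CPM + 1), with KO left of WT at each stage. All but 2 rows carry the gene's name. Rows are grouped from top to bottom by the KO against WT call (24 genes lower at both days, 5 lower at 1 day, 42 called at neither day, 1 higher at day 5), and within a group by the KO share of WT at day 3. The library KO EpiLC A2 is brighter than the other EpiLC libraries in many rows.

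KO levels of these genes were mostly below WT levels. KO means were under 25% of WT for 12 members at day 3 and 14 at day 5, and under 50% for 52.8% and 45.8% of members. Among all genes at 5 CPM or more in WT, 3.1% and 3.46% were under 50%, and the medians were 99.2% and 98.7%. Near WT, between 80% and 125% of it, lay 12 members at day 3 and 18 at day 5. Above 125% of WT lay 9 members at day 3 and 5 at day 5. For comparison, 251 genes were raised at least 5-fold in WT from 1 CPM or more. They stood at a median of 65.2% of WT at day 3 and 67.6% at day 5. WT levels chose the members and these 251 genes and also divide the shares, so the shares lean low beside those of all genes. The 18 genes that passed the members' thresholds in KO libraries instead stood at medians of 130% and 132% of WT. Every KO library lay below every WT library for 45 members at day 3 and 44 at day 5, and above for 4 and 3. This was not counted over all genes, so these numbers have no share to be read against.

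**Figure D2:**
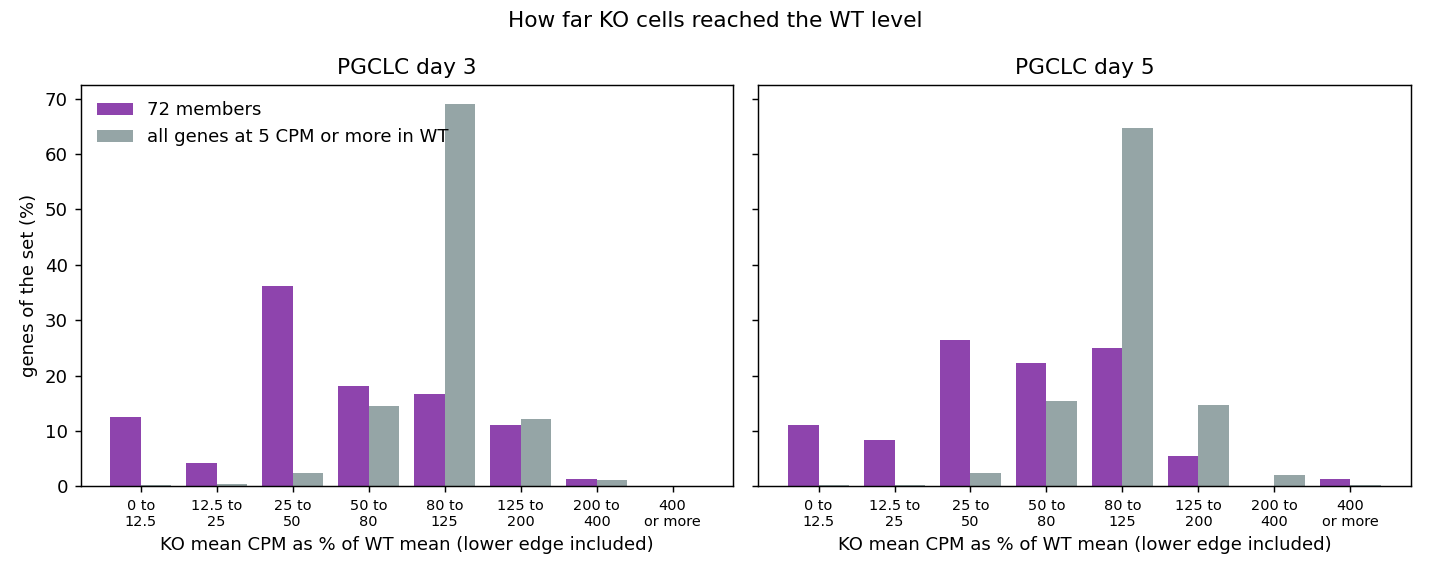
Share of genes (%) in bins of the KO mean CPM as a percent of the WT mean at day 3 and day 5, for the 72 members (left bar of each pair) and for all 10354 genes with a WT mean of at least 5 CPM at both days (right bar). At day 3 the tallest member bar is the bin from 25% to 50% of WT (36.1% of members), where 2.44% of all genes lie, and 69.0% of all genes lie between 80% and 125%.

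Counts were tested with edgeR's quasi-likelihood test, in which a call is a Benjamini-Hochberg adjusted p under 0.05 over 12856 tested genes. All 72 members passed the filter on low counts. At day 3, 26 members were lower in KO (5.18% of all tested genes were called lower) and 0 were higher (5.0% of tested genes). For this 0, 2 members had an unadjusted p under 0.05 in that direction, and DESeq2 and limma each called 0. At day 5, 27 were lower (7.62% of tested genes) and 1 was higher (9.83% of tested genes). Among genes at 5 CPM or more in WT at both days, 5.98% were called lower at day 3 and 8.66% at day 5. The same 24 members were lower at both days, 2 at day 3 only, 3 at day 5 only, and 42 were called at neither. Calls at 1 day alone do not show that the days differ: the KO effect at day 5 minus that at day 3 passed for 0 members and 0 genes in edgeR, with 2 members at an unadjusted p under 0.05 and the smallest adjusted p among members at 0.228. DESeq2 called 7 genes for this difference, 0 of them members, and limma called 0 genes. Without line A2, edgeR called 67 genes in the positive direction (0.516% of tested genes) and 18 in the negative (0.139%), and among members Msc (adjusted p = 0.029). Without KO EpiLC A2 it called 7 genes (0.0537%) and 1 gene (0.00767%), and 0 members. With the replicate block it called 0 genes. Because members had to exceed 5 CPM in WT, WT means near that floor lean high. The 22 members at 10 CPM or more in WT at both days stood at a median KO share of 36.4% at day 3 and 35.7% at day 5, and they too were chosen on WT values, so this does not measure that lean.

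**Figure D3:**
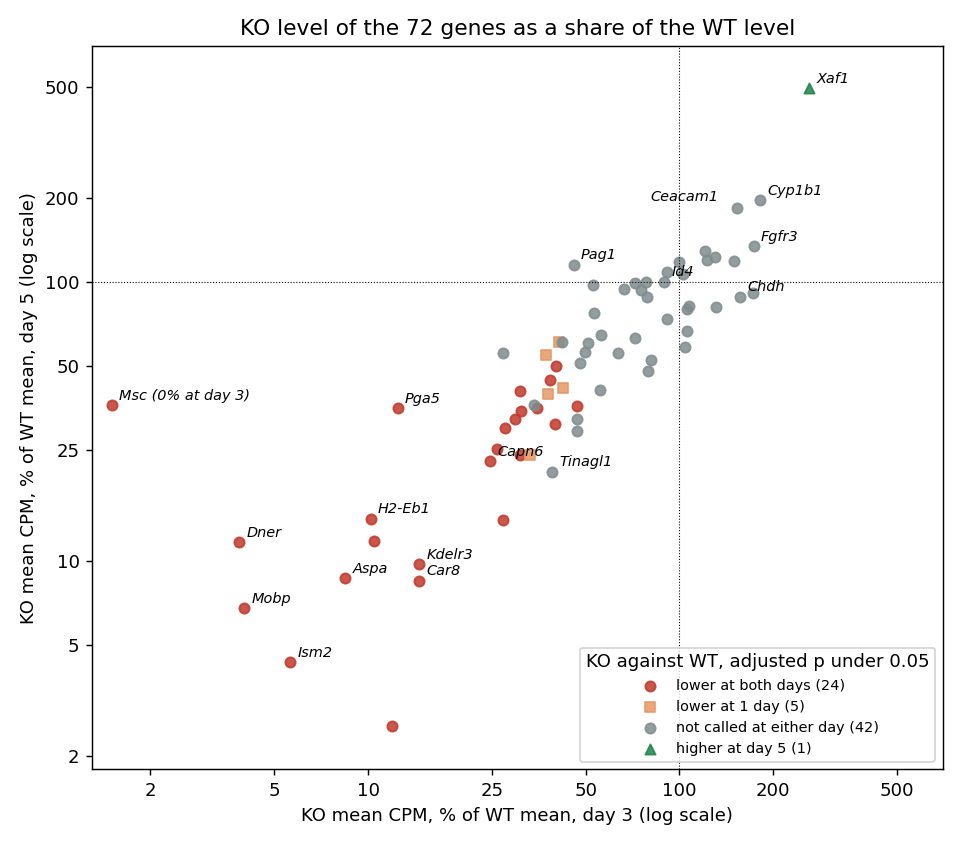
KO mean CPM as a percent of the WT mean at day 3 (horizontal, log scale) and day 5 (vertical, log scale) for each of the 72 genes, coloured by call. Dotted lines mark 100%. Msc, at 0% at day 3, is drawn at the left edge. Mobp, Dner and Ism2 lie at the lower left and Xaf1 (261% and 493%) at the upper right.

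Of 6 transcription regulators, 1 was lower in KO at day 3 and 2 at day 5, and the median KO share was 80.7% and 86.5% of WT. The regulator lower at both days was Msc, which encodes musculin, a basic helix-loop-helix repressor known from muscle and lymphoid precursors. Msc had 0 counts in all 3 KO day 3 libraries, against 5.54, 4.73 and 4.78 CPM in WT. Its day 5 levels were 2.21, 3.71 and 1.84 CPM in KO and 7.13, 7.71 and 6.61 CPM in WT. The groups did not overlap on either day, and KO day 5 libraries were all above KO day 3 libraries. With the floor of 3 counts over the KO group, Msc was at least 19.4-fold lower in KO at day 3 (adjusted p = 8.72e-05). At day 5 it was lower by a log2 fold change of -1.46 ± 0.38 (SE, n = 3 against 3, adjusted p = 0.0156), a call lost without WT day 5 replicate 1 or 2 or KO day 5 A2 (adjusted p up to 0.0678).

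Id4 encodes an inhibitor of helix-loop-helix factors that responds to BMP signals and marks spermatogonial stem cells. It stood at 14.9, 12.9 and 18.1 CPM in KO and 19.3, 16.1 and 15.9 CPM in WT at day 3. At day 5 it stood at 10.1, 7.42 and 13.9 CPM in KO and 10.8, 8.93 and 11.6 CPM in WT. The groups overlapped at both days, and KO means were 89.4% and 100% of WT. The 95% interval of the log2 difference ran from -0.67 to 0.38 at day 3 and from -0.53 to 0.56 at day 5. Hey1, a Notch target repressor, reached 91.2% and 73.6% of WT. Cux2, a homeobox factor of cortical neurons, stood at 5.60, 7.91 and 7.56 CPM in KO and 5.30, 5.67 and 5.24 CPM in WT at day 3, with overlap. Spic, an ETS factor of red pulp macrophages, reached 71.9% and 99.4%. None of these 3 was called at either day. Hesx1, a homeobox repressor of forebrain and pituitary, reached 37.9% and 39.9% of WT, with 4.31, 5.93 and 1.76 CPM in KO against 9.63, 10.03 and 12.1 CPM in WT at day 3. It passed at day 5 only (-1.32 ± 0.43, adjusted p = 0.0436), a call lost without any 1 WT PGCLC library, WT EpiLC 1 or 3, KO day 3 A5 or KO day 5 A5 or A2 (adjusted p up to 0.144).

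**Figure D4:**
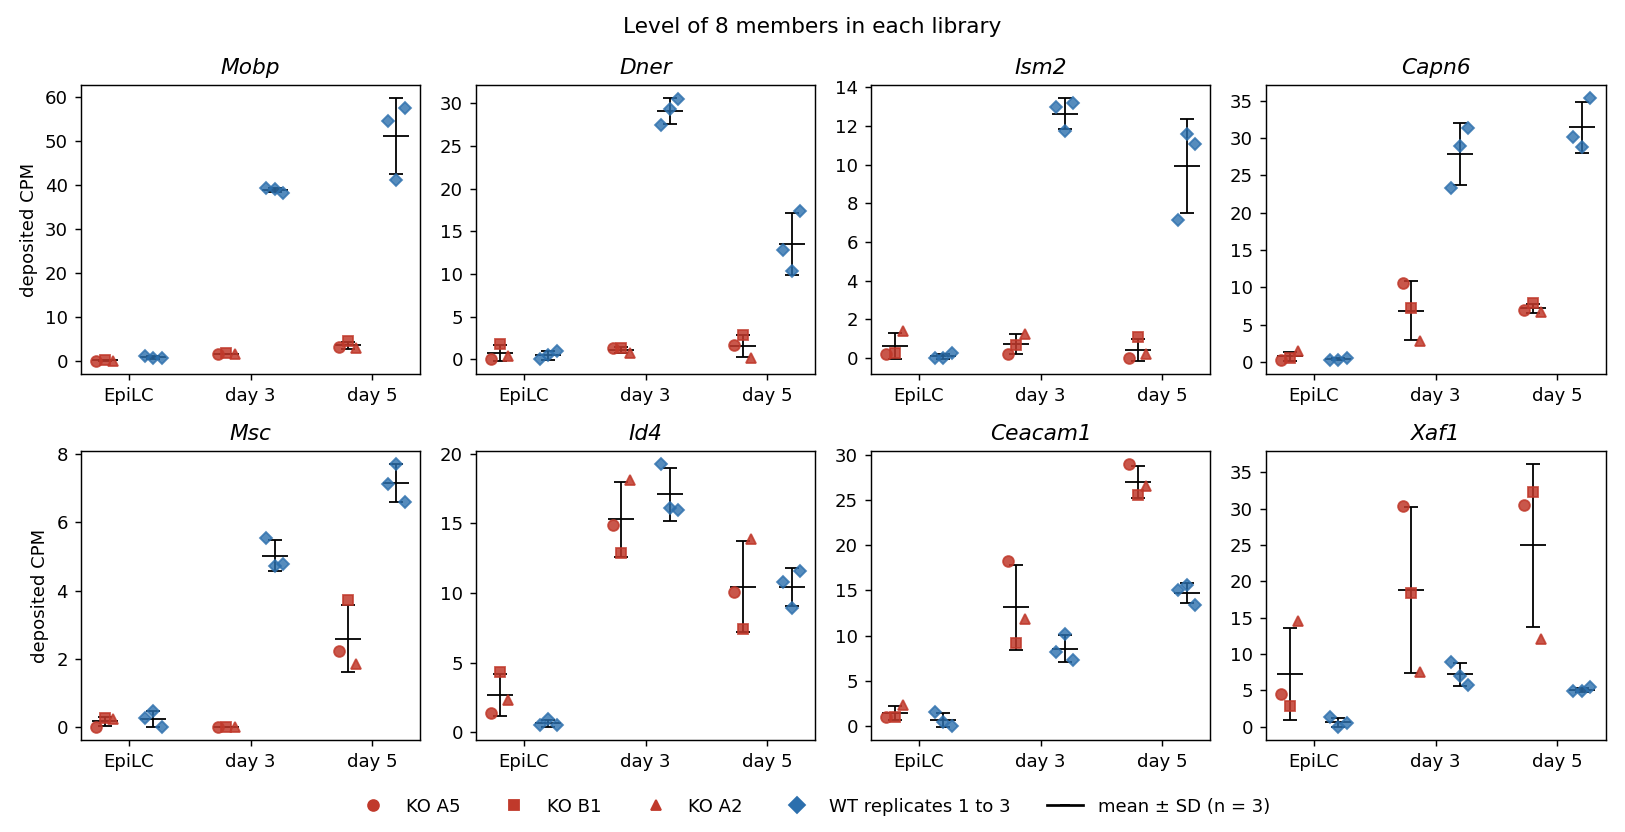
Deposited CPM of 8 members in each library, KO left of WT at each stage, with mean ± SD of 3 libraries (black). Mobp, Dner, Ism2 and Capn6 are far lower in KO than in WT at both days, Msc is at 0 in KO day 3, Id4 overlaps, and Ceacam1 and Xaf1 lie higher in KO at day 5.

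Among the 7 signals, Dner and Ism2 stood at under 3 CPM in every KO PGCLC library and were lower at both days, while the other 5 were not called. Dner encodes a transmembrane Notch ligand of neurons. At day 3 Dner stood at 1.29, 1.32 and 0.756 CPM in KO, against 27.5, 29.3 and 30.5 CPM in WT, a mean of 3.86% of WT. At day 5 it stood at 1.72, 2.84 and 0.204 CPM in KO, against 12.8, 10.3 and 17.5 CPM in WT. The KO day 3 values lay within those of KO EpiLC (0, 1.78 and 0.462 CPM), and no KO library reached a WT level. Dner was lower by log2 fold changes of -4.66 ± 0.59 (adjusted p = 0.000111) and -3.09 ± 0.56 (adjusted p = 0.00135), and both calls held without any 1 library. Ism2, an isthmin family secreted protein, stood at 0.215, 0.659 and 1.26 CPM in KO and 13, 11.7 and 13.2 CPM in WT at day 3. At day 5 it stood at 0, 1.09 and 0.204 CPM in KO and 7.13, 11.6 and 11.1 CPM in WT. No KO library came near a WT library (-4.12 ± 0.60, adjusted p = 0.000383, and -4.40 ± 0.63, adjusted p = 0.000203).

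The other 5 signals stood closer to WT. Tinagl1, a matricellular protein, had means of 39.0% of WT at day 3 and 21.0% at day 5, with 12.1, 9.56 and 13.9 CPM in KO against 27.9, 31.6 and 31.4 CPM in WT at day 3. It did not pass at either day (adjusted p = 0.374 and 0.0855), although no KO library overlapped WT. The library KO EpiLC A2 held 102 CPM of it, and without that library it was lower at both days (adjusted p = 0.000125 and 1.9e-07). Inhbb, the activin beta B subunit, reached 48.0% and 51.2% of WT. Insl3, a Leydig cell hormone that overlaps Jak3 on the same strand, reached 56.1% and 64.7%. Jak3 stood at 73.7 CPM in KO and 115 CPM in WT at day 3, and at 88.1 and 128 CPM at day 5. Efna1, a membrane-bound ligand of Eph receptors, reached 104% and 58.7%. Crispld2, a secreted glycoprotein, reached 99.6% and 118%, with line A2 low at day 3 (10.1, 16.8 and 2.52 CPM in KO, against 10.6, 9.65 and 9.33 CPM in WT). Crispld2 overlaps Gm20388 on the same strand, at 66.6 CPM in KO and 107 CPM in WT at day 3. How reads shared by overlapping genes were counted is not stated.

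Promoter windows of 300 bases around the RefSeq start (GRCm38.p6) were found for 59 of the 72 members. The ESRRB core letters AAGGTCA, searched on both strands, were in the windows of 3 members (5.08%), against 5.38% of all 27025 genes with a window and 3.72% of those at 5 CPM or more in WT at both days. The 3 were Dner and H2-Eb1, both lower in KO at both days, and Ncrna00085, called at neither. The longer form TCAAGGTCA was in 0 of the 59, against 0.47% of all genes. Their windows are printed because they are the ones that hold the core, with the matched letters in capitals. Positions are counted from the RefSeq start. The matches of Dner begin at -112 and -3, that of H2-Eb1 at -238 on the opposite strand, and that of Ncrna00085 at 41. In GENCODE M21 the gene of Ncrna00085 starts at chr17:17827158, upstream of its whole window, so its match is not near that start.
Dner, chr1:84696172-84696471, minus strand: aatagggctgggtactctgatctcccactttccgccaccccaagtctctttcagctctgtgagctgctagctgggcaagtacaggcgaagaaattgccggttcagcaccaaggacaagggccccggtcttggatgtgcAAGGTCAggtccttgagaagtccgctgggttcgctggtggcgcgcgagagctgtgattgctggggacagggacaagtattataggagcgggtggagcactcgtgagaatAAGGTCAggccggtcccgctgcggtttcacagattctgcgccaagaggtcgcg
H2-Eb1, chr17:34305617-34305916, plus strand: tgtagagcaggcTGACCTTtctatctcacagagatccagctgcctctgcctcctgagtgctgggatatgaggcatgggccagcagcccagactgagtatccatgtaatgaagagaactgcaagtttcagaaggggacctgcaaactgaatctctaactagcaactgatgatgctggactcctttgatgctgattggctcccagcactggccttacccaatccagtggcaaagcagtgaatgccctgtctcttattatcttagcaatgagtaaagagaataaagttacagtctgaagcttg
Ncrna00085, chr17:17830725-17831024, plus strand: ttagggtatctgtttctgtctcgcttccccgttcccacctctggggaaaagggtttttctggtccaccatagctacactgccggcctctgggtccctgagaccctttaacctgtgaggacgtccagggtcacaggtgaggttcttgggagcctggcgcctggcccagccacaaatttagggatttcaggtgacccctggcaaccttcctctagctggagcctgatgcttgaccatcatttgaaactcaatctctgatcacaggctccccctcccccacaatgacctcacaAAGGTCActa
A match of letters is a description and not a binding site, and sequence outside these windows was not searched.

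The members' promoters held fewer CpG pairs than those of other expressed genes. Over 68 windows of the 59 members, the median ratio of observed to expected CpG was 0.552, against 0.384 over all 32851 windows and 0.779 over the 10607 windows of genes at 5 CPM or more in WT. A ratio of at least 0.6 was reached by 44.1% of member windows, 35.8% of all windows and 74.3% of windows of expressed genes. The AP-2 letters GCCNNNGGC were, on either strand, in the windows of 15.2% of members, against 29.9% of expressed genes and 18.55% of all genes. The letters CACGTG were in 6.78% of members, against 12.7% of expressed genes and 8.09% of all genes, TATAAA in 8.47%, 7.58% and 15.7%, and the STAT letters TTCNNNGAA in 3.39%, 7.95% and 9.55%. These shares are descriptions with no test.

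Of 8 receptors and surface proteins, H2-Eb1 and Ly6g6e were lower at both days and Il17re at day 5. H2-Eb1 encodes a beta chain of MHC class II, and its family of close copies makes its counts uncertain. It stood at 1.94, 0 and 1.51 CPM in KO and 11.6, 10.03 and 12.3 CPM in WT at day 3. At day 5 it stood at 2.70, 2.18 and 3.07 CPM in KO and 18.5, 15.8 and 21.7 CPM in WT. Each KO library was below every WT library (-3.12 ± 0.44, adjusted p = 0.000276, and -2.80 ± 0.38, adjusted p = 0.00012). Ly6g6e, a GPI-anchored Ly6 family protein, was listed at 0 in all 3 WT EpiLC libraries. It rose in KO as well, to 13.6, 19.5 and 7.05 CPM at day 3, against 41.2, 44.1 and 43.7 CPM in WT, about 31.1% of WT (-1.69 ± 0.30, adjusted p = 0.0029). The share at day 5 was 34.4% (adjusted p = 0.00351). Il17re, the receptor chain for interleukin 17C, reached 33.2% of WT at day 3 (adjusted p = 0.0591) and 23.9% at day 5 (-2.06 ± 0.55, adjusted p = 0.0172), a call lost without WT day 5 replicate 1 or 3 or KO day 5 B1 or A2 (adjusted p up to 0.0758).

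Above WT in KO, without passing, lay Ceacam1, Fgfr3 and Tspan1. Ceacam1, a cell adhesion molecule of epithelia and leukocytes, stood at 29.0, 25.6 and 26.6 CPM in KO and 15.1, 15.6 and 13.4 CPM in WT at day 5, with no overlap (184% of WT, 0.87 ± 0.31, adjusted p = 0.0624). At day 3 its values overlapped (18.3, 9.23 and 11.8 CPM in KO, 8.19, 10.2 and 7.28 CPM in WT). Fgfr3, an FGF receptor whose WT mean was just over the floor, was at 173% and 134% of WT (adjusted p = 0.101 and 0.335). Tspan1, a tetraspanin, was at 122% and 119%. Its day 3 values were 12.9, 8.90 and 6.55 CPM in KO, against 7.46, 7.76 and 7.97 CPM in WT. Siglec5, a sialic acid-binding lectin, reached 49.6% and 55.9% of WT, and Gpr126, an adhesion receptor of Schwann cells, 55.4% and 41.1%. Neither was called.

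Of 7 channels, transporters and gap junction proteins, 5 were lower in KO at day 3 and 4 at day 5, and the median KO share was 37.3% and 35.3%. Gja4, a connexin of vessels and oocytes, stood at 1.94, 1.65 and 1.01 CPM in KO and 6.02, 4.73 and 5.92 CPM in WT at day 3 (-1.81 ± 0.43, adjusted p = 0.0152, lost without WT day 3 replicate 1 or 3 or KO day 3 A2, adjusted p up to 0.0714). It reached 30.0% of WT at day 5 (adjusted p = 0.0107, and 0.0509 without KO day 5 A2).

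Slc15a1, the intestinal transporter of small peptides, reached 35% and 35.3% of WT (adjusted p = 0.0196 and 0.00876), and Trpv4, a cation channel opened by swelling and warmth, 39.9% and 30.9% (adjusted p = 0.0244 and 0.00332). The day 3 call of Trpv4 was lost without any 1 of the 6 day 3 libraries (adjusted p up to 0.097), and that of Slc15a1 without WT day 3 replicate 1 or 2 or KO day 3 B1 or A2 (up to 0.081), while their day 5 calls held. Kcnn1, a calcium-activated potassium channel, was lower at day 3 (37.3% of WT, adjusted p = 0.0108) and not at day 5 (55.0%, adjusted p = 0.0528), and its day 3 call was lost without WT day 3 replicate 3 (adjusted p = 0.0559). Slco4c1 and Slc52a3 were not called. Slco4c1, an organic anion transporter of kidney, stood at 10.3, 10.6 and 11.8 CPM in KO and 9.15, 10.03 and 7.97 CPM in WT at day 3, and reached 129% of WT at day 5. The 95% interval of its log2 difference ran from -0.32 to 0.88 at day 3 and from -0.21 to 0.95 at day 5. Slc52a3, a riboflavin transporter, reached 75.1% and 93.6%.

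Of 9 adaptors and signalling proteins, 4 were lower at day 3 and 3 at day 5. Frmpd1, a FERM and PDZ scaffold, stood at 3.45, 2.31 and 3.53 CPM in KO and 10.6, 11.9 and 11.6 CPM in WT at day 3. Its day 5 values were 4.43, 1.75 and 1.23 CPM in KO and 19.4, 18.7 and 14.6 CPM in WT, 14% of WT (-2.86 ± 0.45, adjusted p = 0.00044, held without any 1 library). Stard8, a START domain protein, reached 25.9% and 25.1% of WT (adjusted p = 0.0249 and 0.0135), and Lnx1, a ubiquitin ligase of the Notch regulator Numb, 46.8% and 36.0% (adjusted p = 0.0216 and 0.00251). Both calls of Stard8 were lost without KO B1 or A2 of the same day, and at day 3 also without any 1 WT day 3 library (adjusted p up to 0.0933 at day 3 and 0.0577 at day 5). The day 3 call of Lnx1 was lost without any 1 WT day 3 library or KO day 3 A2 (up to 0.0946), and that of Frmpd1 without WT day 3 replicate 2 or 3 or KO day 3 B1 (up to 0.0645). Neurl1b, a ubiquitin ligase of Notch ligands, passed at day 3 only (40.9%, adjusted p = 0.0473, lost without any 1 WT library or KO day 3 library, up to 0.168). Pag1, a lipid raft adaptor, was at 45.8% at day 3 and 115% at day 5, Prickle3, of planar polarity, at 63.5% and 55.7%, and She, an SH2 adaptor, at 79.0% and 47.8%, with no call. Map3k6, a stress kinase, stood at 8.19, 6.92 and 5.54 CPM in KO and 12.0, 7.76 and 6.6 CPM in WT at day 3, and its means were equal at day 5 (7.22 CPM in each). Gab2, a docking protein of growth factor receptors, differed between lines: 19.2, 15.2 and 6.80 CPM in KO at day 3, against 10.1, 8.32 and 9.11 CPM in WT.

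Among 13 enzymes, 4 were lower at both days: Aspa, B3gnt3, Car8 and Aldh3b2. Aspa, which breaks down N-acetylaspartate, stood at 1.51, 0 and 0 CPM in KO and 6.98, 5.86 and 5.01 CPM in WT at day 3. Day 5 levels were 1.72, 1.75 and 0 CPM in KO and 14.5, 16.8 and 8.49 CPM in WT (-3.54 ± 0.70, adjusted p = 0.00336). Its day 3 call (adjusted p = 0.0226) was lost without any 1 WT day 3 library or KO day 3 B1 or A2 (up to 0.0839), and its day 5 call held. B3gnt3, a glycosyltransferase, stood at 0.705, 1.27 and 1.62 CPM in KO EpiLC, and no KO day 3 library was above that range. Its levels were 0.647, 0.330 and 0.756 CPM in KO and 5.30, 5.11 and 6.15 CPM in WT at day 3 (-3.13 ± 0.66, adjusted p = 0.00688). Its day 5 mean was 11.8% of WT (adjusted p = 0.00384). Car8, a carbonic anhydrase relative without the enzyme's activity, stood at 1.29, 1.98 and 0.504 CPM in KO and 8.19, 9.08 and 8.65 CPM in WT at day 3. Levels at day 5 were 1.48, 1.31 and 0.204 CPM in KO and 11.4, 11 and 12.7 CPM in WT (-2.79 ± 0.45, adjusted p = 0.000996, and -3.55 ± 0.45, adjusted p = 5.54e-05). Aldh3b2, an aldehyde dehydrogenase with close copies, reached 29.7% and 32.2% (adjusted p = 0.0331 and 0.0294). Both its calls were lost without any 1 WT library or KO B1 or A2 of the same day, and that at day 3 also without WT day 5 replicate 1 or 2 (up to 0.135 and 0.111).

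The other 9 enzymes were not called against WT at either day. Their KO shares ran from 27.0% of WT for Gad1, the enzyme of GABA synthesis, to 182% for Cyp1b1, a cytochrome P450, at day 3. At day 5 they ran from 36.3% for Agpat9, an acyltransferase of triglyceride synthesis, to 196% for Cyp1b1. Cyp1b1 stood at 22.4, 39.9 and 11.6 CPM in KO and 12.8, 15.3 and 12.5 CPM in WT at day 3, with lines A5 and B1 above WT and A2 below it. Epm2a, the glycogen phosphatase laforin, reached 52.8% of WT at day 3 and 97.5% at day 5, and Cyp2b23 66.4% and 94.6%. Mgll, a lipase of monoacylglycerols, reached 50.8% and 60.3%, Entpd2, an ectonucleotidase, 106% and 66.6%, Man1c1, a Golgi mannosidase, 131% and 81.3%, and Chdh, which oxidises choline, 156% and 88.7%.

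Xaf1 was the single member higher in KO at a PGCLC stage. It encodes an interferon-induced partner of the apoptosis inhibitor XIAP. At day 3 it stood at 30.4, 18.5 and 7.56 CPM in KO and 8.91, 7.0 and 5.69 CPM in WT, where A2 overlapped WT (1.41 ± 0.57, adjusted p = 0.131, and 0.0388 without KO EpiLC A2). Its day 5 values were 30.5, 32.3 and 12.1 CPM in KO and 4.89, 4.87 and 5.43 CPM in WT, with every KO library above WT (2.29 ± 0.58, adjusted p = 0.0129). That call was lost without WT day 5 replicate 1 or 2 (adjusted p up to 0.0545). A list of 28 interferon-stimulated genes that includes Xaf1 summed to 963, 836 and 495 CPM in KO and 510 to 570 CPM in WT at day 3. The list summed to 1011, 974 and 775 CPM in KO and 490 to 509 CPM in WT at day 5, and 13 of its 24 tested genes were higher in KO and 2 lower. Their part in the Xaf1 result was not tested. Ube2l6, the conjugating enzyme of the interferon-induced modifier ISG15, went the other way. It stood at 5.65, 6.77 and 2.45 CPM in KO and 24.9, 18.5 and 18.4 CPM in WT at day 5 (-2.06 ± 0.34, adjusted p = 0.000613), and was lower at day 3 as well (30.7% of WT, adjusted p = 0.00859). Rnf182, a RING ubiquitin ligase, reached 81.2% and 52.4% with no call.

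Of 8 calcium-binding, cytoskeletal and scaffold genes, 4 were lower at both days: Mobp, Drp2, Pdlim4 and S100a13. Mobp, a structural protein of myelin, had the smallest adjusted p of all members at both days. It stood at 1.51, 1.65 and 1.51 CPM in KO and 39.2, 39.0 and 38.2 CPM in WT at day 3. Day 5 levels were 3.20, 4.37 and 2.86 CPM in KO and 54.4, 41.2 and 57.6 CPM in WT. KO libraries held 4.01% and 6.81% of WT (-4.61 ± 0.25, adjusted p = 2.88e-08, and -3.87 ± 0.22, adjusted p = 1.8e-08). Mobp and Dner belong to a list of 27 neuronal and glial genes, whose 26 measured genes summed to 150 to 172 CPM in KO and 367 to 379 CPM in WT at day 3. Without Mobp and Dner the list summed to 148 to 170 CPM in KO and 298 to 311 CPM in WT, and with Grin1, a glutamate receptor subunit, left out as well, to 139 to 158 CPM in KO and 199 to 202 CPM in WT. At day 5 this last sum was 197 to 212 CPM in KO and 190 to 196 CPM in WT. Of the 16 tested genes of the whole list, 4 were lower in KO and 1 higher at day 3 (median log2 fold change -0.25). At day 5, 3 were lower and 2 higher (median 0). Mobp and Dner themselves are among the lower genes at both days. S100b, Dcx, Olig2 and Gria1 of this list were at 0 in every PGCLC library, and the list's other genes' part in the member results was not tested.

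Pdlim4, an actin-binding PDZ and LIM protein, reached 38.4% and 44.5% of WT (adjusted p = 0.0171 and 0.0278), S100a13 40.1% and 49.9% (adjusted p = 0.0185 and 0.0484), and Drp2, a dystrophin relative, 30.7% and 40.8% (adjusted p = 0.0175 and 0.0306). Each of these 6 calls was lost without KO A2 of the same day and without WT replicate 2 of the same day, among at least 4 libraries for each. The adjusted p then went up to 0.0788 at day 3 and, for S100a13, to 0.144 at day 5, where all but the KO EpiLC libraries ended its call. Members not called included Kank4 (46.9% and 32.2%), S100a1 (46.8% and 29.3%) and Hrc, a calcium-binding protein of the sarcoplasmic reticulum (102% and 107%). Hrc differed between lines, with 10.3, 8.24 and 3.78 CPM in KO against 7.46, 7.76 and 6.6 CPM in WT at day 3. The 95% interval of its log2 difference ran from -0.90 to 1.0 there.

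Of 4 proteases and inhibitors, 2 were lower in KO at day 3 and 3 at day 5. Capn6, a calpain relative that binds microtubules, rose in KO to 10.6, 7.25 and 2.77 CPM at day 3, against 23.4, 28.9 and 31.4 CPM in WT. Levels at day 5 were 6.88, 7.86 and 6.74 CPM in KO and 30.2, 28.8 and 35.4 CPM in WT. KO held 24.6% and 22.8% of WT (-1.99 ± 0.32, adjusted p = 0.00106, and -2.13 ± 0.32, adjusted p = 0.00027), and both calls held without any 1 library. Pga5, a pepsinogen, stood at 1.29, 0 and 1.51 CPM in KO and 6.98, 8.51 and 7.06 CPM in WT at day 3 (-2.85 ± 0.55, adjusted p = 0.00496). Its day 5 mean was 35.3% of WT (adjusted p = 0.0484, lost without any 1 WT library, any 1 KO day 5 library or KO day 3 A5, up to 0.171). Mep1b stood at 31.3, 15.8 and 14.1 CPM in KO and 49.1, 48.2 and 47.1 CPM in WT at day 3 (42.3%, adjusted p = 0.0615), and passed at day 5 (41.9%, adjusted p = 0.0285, lost without any 1 WT day 5 library or KO day 5 A2, up to 0.118). Serpinb6c, a serpin with close copies, reached 53.1% and 77.5%.

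Of 7 other genes, only Kdelr3, a receptor that returns proteins to the endoplasmic reticulum, was called. It stood at 1.29, 1.65 and 1.26 CPM in KO and 7.22, 10.2 and 11.4 CPM in WT at day 3. Its day 5 values were 0.246, 0.655 and 2.45 CPM in KO and 10.6, 11 and 12.7 CPM in WT (-2.76 ± 0.58, adjusted p = 0.00691, and -3.26 ± 0.58, adjusted p = 0.00111). KO day 3 levels lay within those of KO EpiLC (1.41, 0.761 and 5.55 CPM). Kdelr3 lies opposite Ddx17, at 597 CPM in KO and 520 CPM in WT at day 3, and the strand setting of the counting is not stated. Lrrc31 (78.5% and 88.4%), Lix1l (91.1% and 109%), Tcp11l2 (106% and 79.7%) and Nxf7 (108% and 82.1%) were among the 10 members closest to WT over both days. The others in that set were Hrc, Id4, Crispld2, Tspan1, Map3k6 and Slco4c1, and the widest of their 95% intervals was that of Nxf7 at day 5, from -1.45 to 0.84 on the log2 scale. AC149051.1, annotated as Sgo2b in GENCODE M21, reached 42% and 60.9%, and Ncrna00085, annotated there as Spaca6, 172% and 91.7%.

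Members stood at 1 CPM or more in all 3 KO EpiLC libraries (31 in A5, 27 in B1 and 43 in A2), against 19, 9 and 10 in WT EpiLC, whose values chose them. KO means were under 1 CPM for 30 members, from 1 to under 5 CPM for 31 and at least 5 CPM for 11. In the library KO EpiLC A2, 18 members stood at 5 CPM or more, against 0 in A5, B1 and each WT EpiLC library. Tinagl1 reached 3.76, 1.52 and 102 CPM in KO EpiLC and 0.760, 1.19 and 0.502 CPM in WT EpiLC. Gpr126 stood at 0, 0.761 and 28.0 CPM in KO and 0, 0.476 and 0 CPM in WT, where WT held 2 counts in all (a ratio 60.1-fold higher in KO, exact counting interval 16.3 to 502). Man1c1 stood at 4.47, 2.79 and 25 CPM in KO and 1.01, 1.19 and 0.753 CPM in WT (3.39 ± 0.73, adjusted p = 0.0145). Cyp1b1, Agpat9, Ncrna00085 and Mgll stood at 21.7, 19.2, 22.0 and 18.95 CPM in A2, and at no more than 1.88 CPM in the other 5 EpiLC libraries.

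In EpiLC, 15 members were higher in KO (6.93% of tested genes were called higher) and 1 was lower (4.15%). The 15 were Gpr126, Tinagl1, Mgll, Gab2, Cyp1b1, Xaf1, Man1c1, Nxf7, Stard8, Chdh, She, Lix1l, Cux2, Cyp2b23 and Id4. The WT EpiLC values chose the members low, so this comparison leans to higher in KO. Each of the 16 calls was lost without at least 1 of the 18 libraries. Without KO EpiLC A2 those of Man1c1 and Cux2 were left (299 of 13040 genes were then called higher). Fitted on the KO and WT EpiLC libraries alone, edgeR called 0 of 11876 tested genes in either direction. That fit therefore does not tell members from other genes. In the shared model 33 members had an unadjusted p under 0.05 for higher in KO, and DESeq2 called 14 (8.14% of its genes) and limma 8 (7.36%). Id4 was spread over the lines, at 1.41, 4.31 and 2.31 CPM in KO and 0.506, 0.952 and 0.502 CPM in WT (1.92 ± 0.49, adjusted p = 0.0244, up to 0.0914 without 1 library). Mobp was the 1 lower, with 1 count in KO and 9 in WT (9.29-fold, exact counting interval 1.29 to 407, adjusted p = 0.0472, up to 0.177 without 1 library).

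Some marker lists of other cell types also stood high in the library KO EpiLC A2, and others did not. Trophoblast genes (17 measured) summed to 1261, 669 and 4421 CPM in KO EpiLC and 753 to 804 CPM in WT EpiLC. Endoderm genes (17) summed to 387, 291 and 1444 CPM in KO and 238 to 252 CPM in WT. Fibroblast and mesenchyme genes (12) summed to 345, 271 and 2058 CPM in KO and 240 to 254 CPM in WT. Lum, Ttr and Cer1 of these lists were at 0 in every library. In KO against WT EpiLC, 6 of 15 tested trophoblast genes and 4 of 9 endoderm genes were higher and 0 lower. Of 8 tested fibroblast and mesenchyme genes, 3 were higher and 1 lower. Muscle genes (13) summed to 31.7, 31.0 and 32.6 CPM in KO EpiLC and 29.4 to 34.9 CPM in WT EpiLC. Blood and endothelium genes (16) summed to 134, 113 and 133 CPM in KO and 111 to 115 CPM in WT. In sorted PGCLC at day 3, fibroblast and mesenchyme genes summed to 98.5 to 110 CPM in KO and 52.8 to 54.9 CPM in WT, of which 0 of 8 tested genes were called. At day 5 they summed to 132, 152 and 266 CPM in KO and 63.5 to 73.5 CPM in WT, with 1 gene higher. Trophoblast genes summed to 1111, 1610 and 2595 CPM in KO and 1102 to 1268 CPM in WT at day 3 (1 of 15 tested genes higher, 1 lower). At day 5 they summed to 583 to 772 CPM in KO and 789 to 870 CPM in WT (1 higher, 3 lower). Naive pluripotency genes (20, with Esrrb, Dppa3 and Dppa5a among them) summed to 2972 to 3167 CPM in KO and 4798 to 4985 CPM in WT at day 3, with 6 lower in KO and 0 higher. At day 5 they summed to 2986, 4178 and 3552 CPM in KO and 4771 to 4903 CPM in WT (6 lower, 0 higher). In EpiLC they summed to 703, 511 and 1104 CPM in KO and 727 to 830 CPM in WT. The part of these levels in the member results was not tested.

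**Figure D5:**
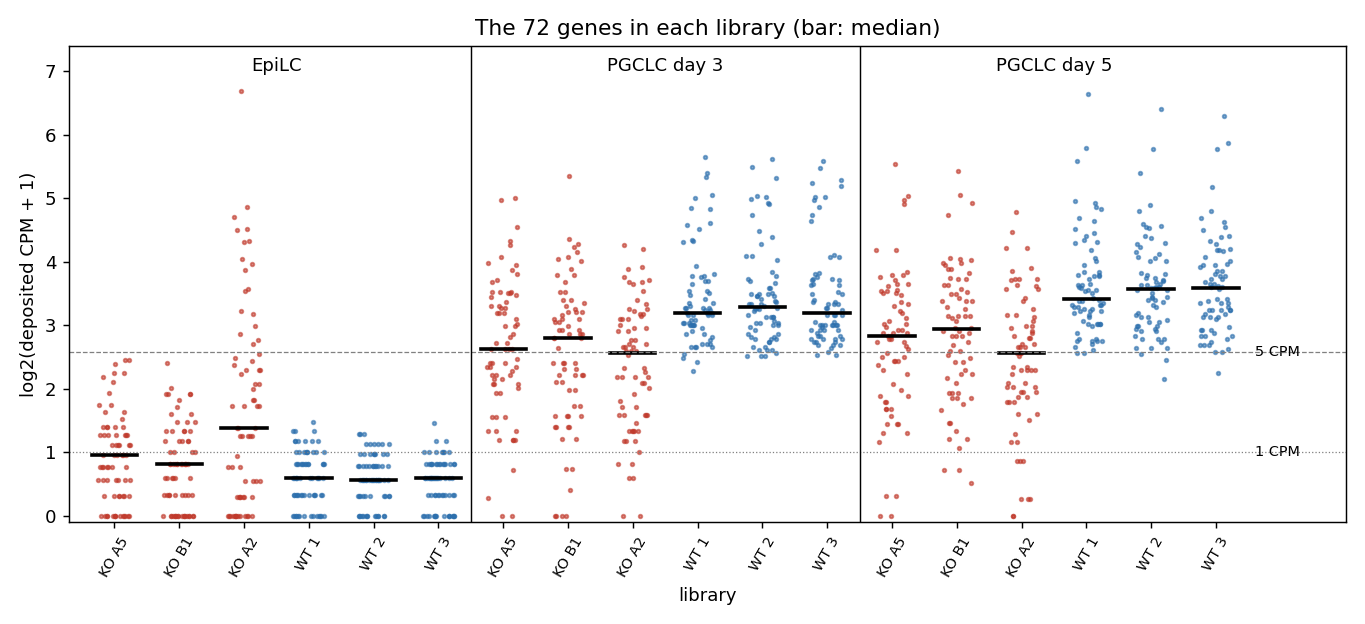
All 72 genes in each library as log2(deposited CPM + 1), KO left of WT at each stage, with the median as a bar and lines at 1 and 5 CPM. KO EpiLC A2 alone among EpiLC libraries has members above 5 CPM (18 of 72), and KO PGCLC medians (4.91 to 6.66 CPM) lie below WT PGCLC medians (8.19 to 11 CPM).

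The switch was next read within KO libraries, which did not choose the members. From KO EpiLC to KO day 3, 40 of 72 members rose (20.6% of tested genes rose) and 0 fell (21.4% of tested genes fell). The number falling was 0 also at an unadjusted p under 0.05 and in DESeq2 and limma. KO EpiLC means were under 1 CPM for 30 members, where a fall could hardly be called. The share of all tested genes is therefore no like reference for the 0 that fell. KO means reached 5 CPM for 36 members at day 3, 42 at day 5 and 31 at both. Of the 40, 34 calls held without any 1 library, and those lost were Gad1, Car8, Hrc, Epm2a, Neurl1b and H2-Eb1 (adjusted p up to 0.268). Without KO EpiLC A2 the number was 55 (25.5% of tested genes). Fitted on the 2 KO groups alone it was 21 (9.3% of tested genes). With the KO line as a block it was 42 (23.5% of tested genes), adding Pag1 (adjusted p = 0.0485) and Cyp2b23 (adjusted p = 0.0308).

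Rises within KO included genes that were lower than WT and genes not called against WT. Of the 26 members lower than WT at day 3, 14 rose within KO, and of the 46 others 26 did. Ly6g6e had 150 counts in KO day 3, against 1 count in KO EpiLC, a ratio of 161 with an exact counting interval from 28.5 to 6414. Rnf182, not called against WT, had 54 counts in KO day 3, against 1 in KO EpiLC (ratio 58.1, interval 9.99 to 2336). AC149051.1, also not called against WT, was at least 17.9-fold higher in KO day 3 than in KO EpiLC, where it had 0 counts. The other 12 of the 26 had no rise called in KO, among them Dner, Ism2, B3gnt3, Kdelr3, Ube2l6, Stard8, Frmpd1, Drp2, Msc, Aspa and Kcnn1. Drp2 stood at 1.51, 1.98 and 1.51 CPM in KO day 3 and 1.18, 1.27 and 2.54 CPM in KO EpiLC, with overlap (-0.02 ± 0.48, adjusted p = 0.977). Ube2l6 stood at 4.31, 3.96 and 2.01 CPM in KO day 3 and 1.41, 2.79 and 2.31 CPM in KO EpiLC (0.66 ± 0.44, adjusted p = 0.233). By role, those that rose in KO were 5 of 6 transcription regulators, 3 of 7 signals and 7 of 8 receptors and surface proteins. So did 5 of 7 channels, transporters and gap junction proteins, 2 of 9 adaptors, 6 of 13 enzymes and 3 of 7 others. The rest were 1 of 3 ubiquitin-linked or interferon-responsive genes, 5 of 8 calcium-binding, cytoskeletal and scaffold proteins, and 3 of 4 proteases and inhibitors. Over all members 40 of 72 rose, and over all tested genes 20.6%. The role groups hold few genes and were drawn up with the members known, and differences between them were not tested.

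The same thresholds applied to KO libraries found 18 genes, of which 8 were members (11.11% of the 72 and 44.44% of the 18): Slco4c1, Lrrc31, Fgfr3, Spic, Pdlim4, Slc15a1, Ly6g6e and Capn6. The 18 stood at a median of 130% of WT at day 3, a description, since KO values chose them. Without KO EpiLC A2 the list held 38 genes with 16 members, and without line A2 47 genes with 22 members.

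Between day 3 and day 5 few members were called in either genotype. In KO 1 member rose (0.366% of tested genes) and 0 fell (0.187%), with 1 falling at an unadjusted p under 0.05 and 0 in DESeq2 and limma. The member that rose was Msc, at least 10.03-fold higher at day 5 (35 counts, against 0 at day 3, adjusted p = 0.00902). In WT 0 rose (0.288% of tested genes) and 0 fell (0.482%), with 8 and 4 at an unadjusted p under 0.05 and 0 in DESeq2 and limma. Fitted on the WT PGCLC libraries alone, 18 rose (15.1% of tested genes) and 9 fell (15.7%). Without line A2 in the model, 13 rose (7.58% of tested genes) and 5 fell (7.95%).

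Members lay below WT in each of the 3 KO lines. At day 3 members stood at a median of 50.8% of WT in A5, 47.2% in B1 and 42.3% in A2, and at day 5 at 53.0%, 55.3% and 44.9%. A2 was the lowest of the 3 lines for 35 members at day 3 and 38 at day 5. Without line A2, 38 members were lower than WT at day 3 (10.3% of tested genes were then called lower) and 38 at day 5 (14.2%). In that fit 4 members were higher at each day, against 10.6% of tested genes at day 3 and 15.7% at day 5. Genes of chromosome 11 stood at a median log2 ratio to WT of -0.46 to -0.50 in the 3 libraries of A2, those of chromosome 16 at -0.41 to -0.50 in A2 and B1, those of chromosome 1 at 0.25 to 0.26 in A2, and those of chromosome 8 at -0.14 to -0.18 in KO PGCLC libraries of all lines. Members were on chromosome 11 in 3 cases (Pdlim4, Aspa and Xaf1), on 16 in 0, on 1 in 4 and on 8 in 5. Of those on chromosome 11, Pdlim4 and Aspa were lower in KO at both days and Xaf1 was higher at day 5. The part of the chromosome levels in these calls was not tested. With chromosomes 1, 8, 11, 16 and Y left out, the 60 remaining members stood at medians of 50.2% and 55.8% of WT.

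Without any 1 of the 18 libraries, 12 of the 26 calls at day 3 held: Msc, Dner, Mobp, Ism2, H2-Eb1, B3gnt3, Pga5, Car8, Kdelr3, Capn6, Ube2l6 and Ly6g6e. At day 5, 16 of 28 held, among them Dner, Mobp, Ism2, H2-Eb1, B3gnt3, Car8, Kdelr3, Capn6, Ube2l6, Ly6g6e, Aspa, Frmpd1, Lnx1, Trpv4 and Slc15a1. The first 10 genes of the day 5 list held at both days. The number lower was 13 at day 3 without WT day 3 replicate 3 (2.82% of tested genes) and 17 at day 5 without KO day 5 A2 (4.99%). Without KO EpiLC A2 it was 35 at each day, while 9.24% of tested genes were lower at day 3 and 12.5% at day 5, and 9.57% and 15.1% were higher. At day 3 the 9 then lower besides were Tinagl1, Gad1, Pag1, Agpat9, Mgll, Il17re, Epm2a, Hesx1 and Mep1b, and Fgfr3 and Xaf1 were then higher. At day 5 the 8 then lower besides were Tinagl1, Inhbb, S100a1, Kank4, Agpat9, Kcnn1, Gpr126 and Rnf182, and Ceacam1 was then higher. The smallest of these adjusted p-values was that of Tinagl1 at day 5 (1.9e-07) and the largest that of Rnf182 (0.0497).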

How the data were processed

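Polyadenylated RNA libraries of 6 groups of 3 were analysed. The authors deposited raw counts per gene and CPM values for each library, and deposited CPM equalled counts over the library total within 1e-06. Per the submitters' processing notes, Trim Galore 0.4.3.1 and build mm10 (GRCm38.p4) were used. For the aligner, the counter, the annotation and the strand setting nothing is given in the sources used here. Labels name the later stage day 5 where column names write d6, and KO line A2 where titles write KO2. Rows without a gene ID (56 of 25965, 0.0559% to 0.0828% of counts) were left out of tests. Library totals were 3032965 to 5286330 counts, and counting intervals and floors of 3 counts cover counting error only.

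Counts were fitted with edgeR 4.0.16 (R 4.3.3; TMM, filterByExpr, robust quasi-likelihood, 6 group means over 18 libraries; 12856 genes tested), with Benjamini-Hochberg adjusted p under 0.05 as the call. Levels are deposited CPM. The procedure was tested on simulated data. As alternatives, DESeq2 1.42.0, limma 3.58.1 on log2(CPM + 1), RLE size factors and an unfiltered table were tried, with fits on the groups compared, each library left out, line A2 left out and the replicate as a block. KO line names pair libraries: same-named libraries deviated together in 9 of 9 pairs (r 0.11 to 0.588). WT numbers did not (r -0.048 to 0.066). Called genes of largest change, genes closest to WT, genes called in EpiLC and list genes are given library by library. The members, role groups and lists were chosen with earlier results of these data known. Promoter windows are RefSeq's, on GRCm38.p6. Single values of 2 members are not reported here, though counts over the members include them.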

Additional observations from a re-analysis of the deposited data

How the results depend on the processing

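With 1 library left out, members lower in KO numbered 13 to 35 at day 3 (2.82% and 9.24% of tested genes in those fits). At day 5 they numbered 17 to 35 (4.99% and 12.5%). Members higher numbered 0 to 2 at each day. There were 2 at day 3 without KO EpiLC A2 (9.57% of tested genes) and 2 at day 5 without WT EpiLC 1 (1144 of 13104 genes). In EpiLC members numbered 0 to 23 higher and 0 to 2 lower. The 23 and the 2 came without KO EpiLC B1, where 1578 of 13079 genes were higher and 895 lower. Members higher numbered 0 without WT EpiLC 2, where 101 of 13097 genes were higher. From KO EpiLC to KO day 3 members were 35 to 55 higher and 0 to 1 lower. The 35 came without KO EpiLC B1 (2295 of 13079 genes higher) and the 55 without KO EpiLC A2 (25.5%). Without KO EpiLC A5, 1 was lower (2478 of 13060 genes). From day 3 to day 5 members were 1 to 4 higher and 0 lower in KO, and 0 to 3 higher and 0 to 1 lower in WT. The highest of these numbers came without KO EpiLC A2. In that fit 209 of 13040 genes were higher and 140 lower in KO, and 278 higher and 326 lower in WT. For the KO effect at day 5 minus that at day 3, 0 members were called. The median KO share of WT was 47.0% to 50.2% at day 3 and 48.8% to 57.0% at day 5, where the lowest came without KO day 5 B1.

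Without line A2, 4 members were higher in KO at day 3 (10.6% of tested genes) and 4 at day 5 (15.7%). In the same fit 8 were higher and 0 lower in EpiLC (856 and 932 of 12989 genes). From day 3 to day 5, 4 were then higher in KO (466 genes), and 13 higher and 5 lower in WT (7.58% and 7.95%). There 1 member (Msc) had a KO effect that was higher at day 5 than at day 3 (0.516% of tested genes). DESeq2 gave 2 higher in KO at day 5 (1307 of 14790 genes) and 0 lower in EpiLC (744 of 13398 genes). It gave 2 higher at day 5 than day 3 in KO (88 of 14790 genes). With only the 2 groups compared, 2 were higher in KO at day 5 (1301 of 12130 tested genes). In EpiLC that way gave 0 higher and 0 lower (0 of 11876 genes in either direction). It gave 21 higher in KO day 3 than KO EpiLC (9.3% of tested genes). From day 3 to day 5 it gave 0 higher in KO (0 of 11828 genes), and 18 higher and 9 lower in WT (15.1% and 15.7%). Without a filter 9 were higher and 0 lower in EpiLC (698 and 336 of 17965 genes), and limma gave 8 higher there (7.36%). The causes were not tested.

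From KO EpiLC to KO day 3, uncalled log2 changes below 0 turned positive without KO EpiLC A2 and without line A2: 2.18 and 2.05 for Tinagl1, 1.55 and 1.38 for Man1c1, 2.39 and 2.46 for Agpat9, 2.90 and 3.08 for Mgll, and 3.85 and 3.80 for Gpr126. The lowest values with 1 library left out were -2.18 for Tinagl1, -0.50 for Man1c1, -1.24 for Agpat9, -1.80 for Mgll and -1.39 for Gpr126. Over all single-gene values, 322 lost a call, 181 gained one with direction kept, and the 10 given above gained one with direction changed. The other 6381 did not change side of the threshold or had no adjusted p. Some of these 6381 changed direction without a call. With the replicate block, 42 members were higher in KO day 3 than KO EpiLC (23.5% of tested genes). Between day 3 and day 5 the fit with the block gave 1 higher in KO (133 of 12856 genes) and 0 in WT (166 genes). It called 0 members for the KO effect at day 5 minus that at day 3. The 42 were the 40 called without the block plus Pag1 and Cyp2b23, and the member counts of the other 3 comparisons were the same with the block. Levels near 1 CPM are about 3 to 5 counts per library, which limits the EpiLC comparisons.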
